A study of Citrus sinensis and Citrus junos and Citrus trifoliata with 12 samples.

Results

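Root and stem were compared within grafted orange trees on one rootstock, using 4 of the 12 libraries of the series. The roots belonged to the rootstock Ziyang xiangcheng (Citrus junos, written Cj). The stems belonged to the grafted scion, 'Lane Late' navel orange (Citrus sinensis, written LL). The members were assigned by their labels, not by measured values: the 2 Cj+LL root libraries and the 2 Cj+LL stem libraries. All came from trees planted in one orchard in 2009, at one stage labelled 140 DAF, and were sequenced in 2015. Although the series title names saline-alkali stress, the labels give these libraries no stressed and unstressed groups. The submitters call the libraries of a group biological replicates but name no trees, and p-values therefore speak only to how these libraries varied, which may be technical in part.

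In a grafted tree the rootstock supplies the roots, which anchor the plant and take up water and mineral ions, while the scion supplies the shoot. The stem carries xylem, which moves water upward, and phloem, which moves sugars from the leaves, and its outer tissues can be green. Each library is bulk RNA from an organ, so fewer cells of a type and less RNA per cell cannot be told apart. Organ and species changed together in this comparison. Both species were also counted on one set of gene IDs, so organ, species and how well reads of each species were assigned to those IDs cannot be told apart in any result below. The IDs come without names in the files, and 0 of the 25286 IDs in these libraries matched a RefSeq gene table of 29331 sweet orange genes (assembly DVS_A1.0). Genes are therefore given by ID with no function, and the organ labels could not be checked against marker genes.

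The root libraries held 9629543 and 9901863 estimated counts and the stem libraries 10614334 and 11268796. Replicates resembled each other more in root than in stem. Across genes, log2 counts-per-million (CPM) had a Pearson's r of 0.994 between root replicates and 0.987 between stem replicates, against 0.568 to 0.596 between an organ and the other. Genes are not independent replicates, so these values are descriptive. Among genes at 8 CPM or more in the organ, replicates differed at least 2-fold for 8 of 11809 genes in root and for 184 of 13386 in stem. The biological coefficient of variation was 4.59% in root and 14.7% in stem.

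Most genes differed between root and stem. Of 20144 genes tested, 16473 passed at an adjusted p under 0.05 (81.8%) in the quasi-likelihood test of edgeR, adjusted by the Benjamini-Hochberg method. Of these, 7703 genes (38.2% of those tested) were higher in root and 8770 (43.5%) were lower in root. At least 4-fold differences leaned to the stem: 2787 genes (13.8%) stood at least 4-fold above stem and 4523 (22.5%) that far below it. Both root libraries stood above both stem libraries for 8682 genes (43.1%), and below them for 9804 (48.7%).

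The balance between higher and lower calls rested on how libraries were scaled. The large differences leaned to the stem under every scaling tried. CPM values here use library sizes adjusted by TMM, which sets a scaling factor from the bulk of genes. With library totals alone, 5333 genes were called higher and 11368 lower in root, or 31.9% higher instead of 46.8%. The median log2 fold change of all tested genes was -0.14 with TMM and -0.75 with totals alone. At least 4-fold differences stood at 2003 higher and 5933 lower with totals alone, and at 2878 higher and 4421 lower with edgeR's RLE size factors.

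With TMM scaling, small differences leaned to root and large ones to stem. Among called genes under 2-fold, 2297 were higher and 1844 lower in root, and from 2-fold to under 4-fold 2619 were higher and 2403 lower. This lean turned with library totals alone, where calls under 4-fold numbered 3330 higher and 5435 lower. From 4-fold to under 16-fold the split was 1633 higher and 2584 lower, and from 16-fold to under 256-fold it was 863 and 1463. At 256-fold or more it was 291 and 476. Some of these fitted folds concern genes with a rounded count of 0 in both libraries of an organ: 313 of the genes at least 4-fold higher in root and 650 of those at least 4-fold lower. They made up 216 of the 291 and 380 of the 476. From 16-fold to under 256-fold they were 97 of the 863 and 270 of the 1463, and below 16-fold there were none. Counted against a floor of 3 counts per library, 103 of those 650 genes had a bound under 4-fold and none of the 313 did. The count filter and the scaling set how low such a bound can go, and they allow lower bounds for stem genes than for root genes. The contrast between 103 and none therefore says nothing about the genes. Without those 103 genes, 4420 remained at least 4-fold lower in root, still above the 2787 higher.

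**Figure D1:**
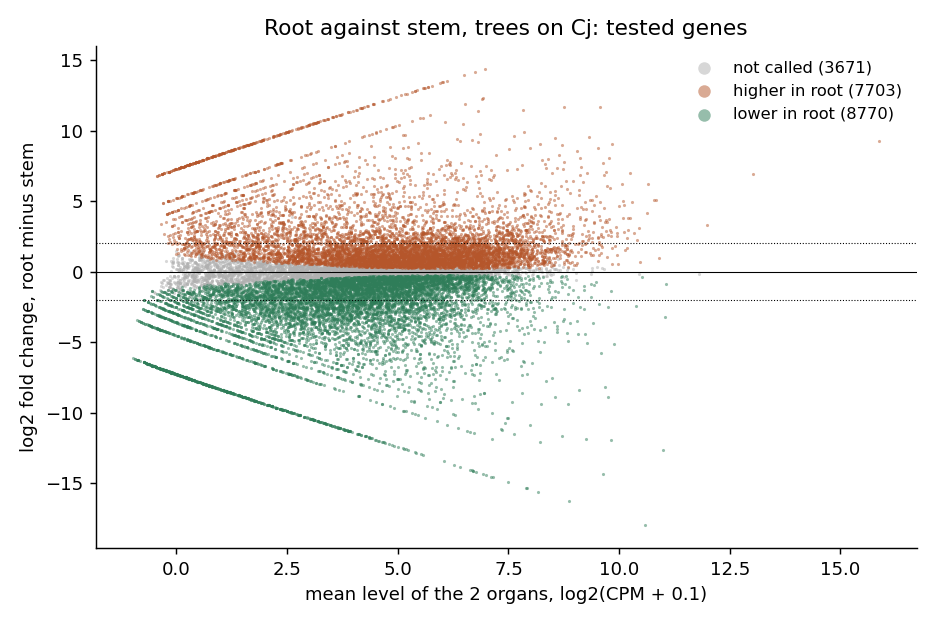
Each point is a tested gene, with its mean level in root and stem as log2(CPM + 0.1) on the x axis and its log2 fold change, root minus stem, on the y axis. Colours mark 7703 genes called higher in root, 8770 called lower and 3671 not called, dotted lines mark 4-fold, and the straight streaks at the edges are genes with few or no counts in an organ.

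A gene that missed the threshold was not always shown to be level. Of the 3671 genes not called, 2571 had a 95% interval of the fold change within 2-fold either way, and 1507 within 1.5-fold. The other 1100 had wider intervals, so a difference of 2-fold could not be told apart from none. In the other direction, 1590 called genes differed by less than 1.5-fold.

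Root counts were concentrated in fewer genes than stem counts. In the root libraries the 797 and 827 most abundant genes held 50% of the estimated counts, and in the stem libraries the 1855 and 1908 most abundant. The 10 most abundant genes took 14.2% and 12.6% of counts in root and 3.18% and 3.45% in stem. Per length the gap in this share was much smaller. On the deposited FPKM the 10 most abundant genes took 8.73% and 8.13% in root and 6.97% and 7.37% in stem. The number of genes holding 50% still differed widely on FPKM, at 823 and 829 in root and 1441 and 1479 in stem. With 2 libraries per organ, an exact two-sided permutation test cannot go below p = 0.333, so these values are given without a test. The organs did not overlap in either quantity.

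**Figure D2:**
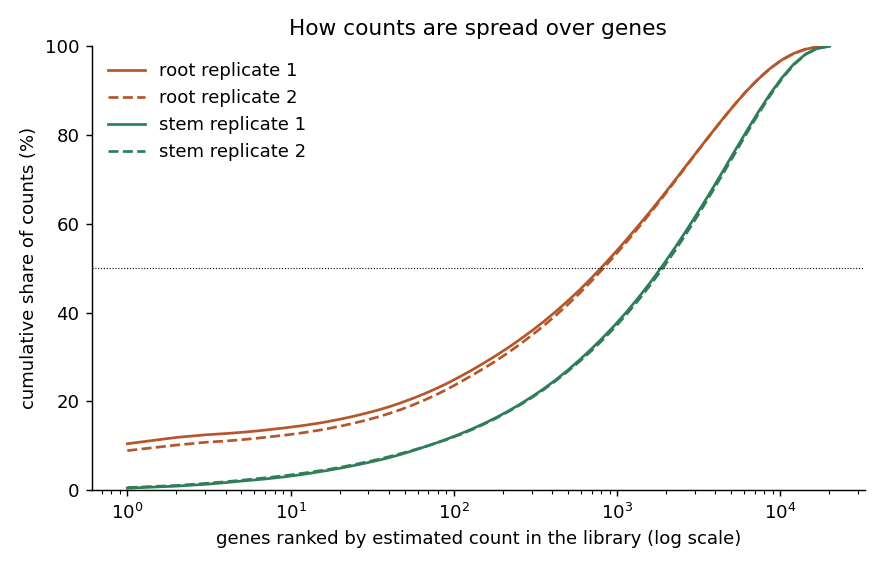
Genes are ranked by estimated count within each library on a log x axis, and the y axis gives the cumulative share of that library's counts in percent. Both root curves lie above both stem curves over most of the ranks and cross the dotted 50% line at 797 and 827 genes, against 1855 and 1908 genes in stem.

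Part of that gap came from a single gene. Cs7g25130 took 10.5% and 8.92% of counts in the root libraries and 0.0273% and 0.0204% in the stem libraries. Its level was 130124 and 109901 CPM in root against 225 and 162 CPM in stem. This is 620-fold on the means, and the fitted log2 difference was 9.28 ± 0.37 (SE, edgeR adjusted p = 5.4e-07). Its estimated counts were not whole in any of the 4 libraries, which happens where a read is split over several genes, so part of its level may belong to similar copies. With Cs7g25130 left out, the number of genes holding 50% of counts was 1072 and 1058 in root and 1856 and 1908 in stem, and the organs still did not overlap. The share of the 10 most abundant genes was then 4.38% and 4.22% in root and 3.19% and 3.45% in stem.

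The most abundant genes of the organs were largely different genes. The lists of the 10 most abundant genes by mean share of counts had 1 gene in common, the lists of 100 had 13 and the lists of 1000 had 376. Between replicates the lists of 100 shared 95 genes in root and 86 in stem. Of the 100 most abundant root genes, 81 were called at least 4-fold higher in root, and of the 100 most abundant stem genes 54 were called at least 4-fold lower in root, against 13.8% and 22.5% of all tested genes. Calls in the opposite direction, of any size, numbered 2 among those 100 root genes and 10 among the 100 stem genes. Among the 1000 most abundant genes they numbered 34 for root and 299 for stem. Of all tested genes, 43.5% were called lower and 38.2% higher in root at any size. Genes called at least 4-fold higher in root held 44.2% and 43.3% of root counts and 5.60% and 4.66% of stem counts. Genes called at least 4-fold lower held 1.60% and 1.58% of root counts and 27.8% and 29.0% of stem counts. The lists were picked by level in an organ from the same counts, which favours calls toward that organ. The shares of counts follow from the calls. Both are given as a description.

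In the other direction, Cs4g09550 had the largest difference in mean CPM toward stem. It stood at 3313 and 4854 CPM in the stem libraries and at 0.516 and 0.746 CPM in the root libraries, where it had 4 and 6 counts. The fitted log2 difference was -12.63 ± 0.37 (SE, edgeR adjusted p = 1.8e-07). It was the most abundant gene of stem replicate 2, with 0.609% of counts, while both root libraries were close to the floor of 3 counts. Its estimated counts were not whole in either stem library, so part of that level may belong to similar copies.

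In each direction the largest fitted fold, among called genes at a mean log2 CPM of at least 3, belonged to a gene at 0 in the other organ. Such a fold is not measured, so a bound is given instead. A bound of at least 256-fold was reached by 21 genes higher in root and 18 lower. Among genes not at 0 in the other organ, 75 and 96 had a fitted fold of that size. Cs8g06620 had no counts in either root library and stood at 3116 and 2988 CPM in stem, with 40181 and 42236 estimated counts behind those levels. Against a floor of 3 counts per library it was at least 8027-fold lower in root (edgeR adjusted p = 1.8e-07). The next tested ID after it was also at 0 in both root libraries and stood at a mean of 153 CPM in stem, while the tested ID before it stood at 10.6 CPM in root and 14.9 CPM in stem. Cs5g04630 stood at 257 and 241 CPM in root and had no counts in stem, which makes it at least 1120-fold higher in root (edgeR adjusted p = 1.7e-07). Estimated counts were not whole in 2 libraries for Cs5g04630, both of root, and in 1 stem library for Cs8g06620. Part of either level may therefore belong to similar copies, and these bounds cover counting error only. The tested IDs next to Cs5g04630 were not higher in root: the one before was lower, at 5.21 CPM in root against 58.6 CPM in stem, and the one after stood at 0.758 against 0.961 CPM.

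**Figure D3:**
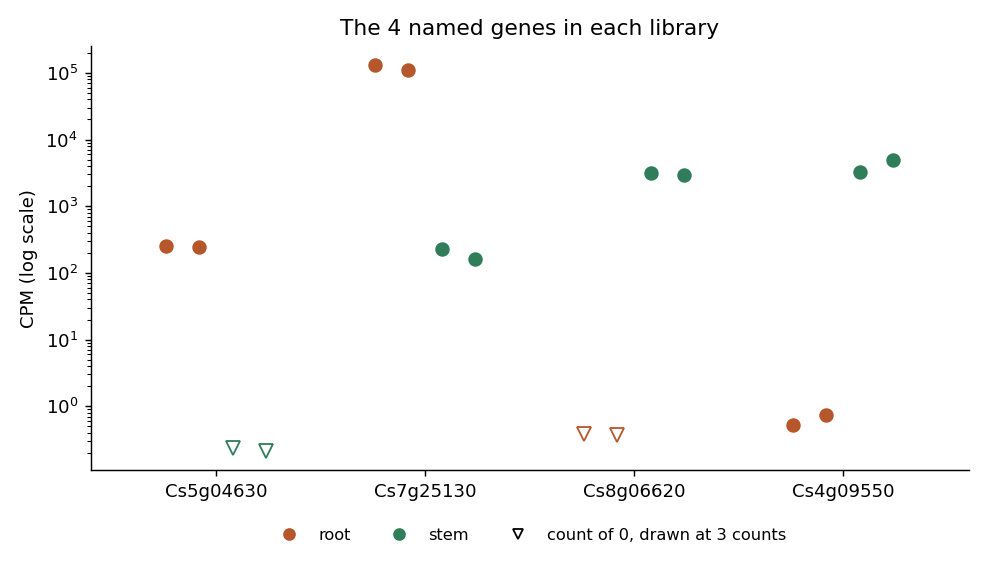
CPM on a log axis is shown for each of the 4 libraries, with root in brown and stem in green, and open triangles mark a count of 0, drawn at the level of 3 counts in that library. No root value overlaps a stem value for any of the 4 genes, and Cs7g25130 reaches 130124 CPM in root.

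More genes were listed in stem alone than in root alone. With any estimated count in both libraries of an organ and none in the other, 1543 genes were stem-only and 781 root-only. Most were low: the median estimated count was 8.02 and 9.04 in the stem libraries and 7 in each root library. With at least 10 counts in both libraries the numbers were 668 and 303, with at least 100 counts 196 and 75, and with at least 1000 counts 20 and 5. Depth differed in the same direction as these counts, and with every library thinned to 9629514 counts they were 1504 stem-only and 831 root-only genes. Thinning levels library totals only. Before it, the median count of a listed gene was 79.85 and 82.0 in the root libraries and 162 and 176 in the stem libraries. A typical gene was therefore sampled less deeply in root at a like total. How much this adds to the stem-only excess, at any of these limits, was not tested. The stem-only genes with at least 100 counts took 1.54% and 1.61% of stem counts, and the root-only ones 0.301% and 0.309% of root counts. A count of 0 limits a gene to 3 counts in a library, for counting error only.

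The direction of the difference followed the level of the gene. Tested genes were split into 5 quintiles by their mean level over the libraries. In the highest quintile 2432 of 4029 genes (60.4%) were higher in root and 1097 (27.2%) lower, against 38.2% and 43.5% of all tested genes. In the lowest quintile 1184 were higher (29.4%) and 1848 lower (45.9%). Median log2 fold changes rose from -0.75 in the lowest quintile to 0.67 in the highest. With library totals alone the order of the quintiles was similar and the lean to root in the highest nearly closed, at 1761 higher and 1625 lower. The level and the fold change share the same counts, so this is a description.

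**Figure D4:**
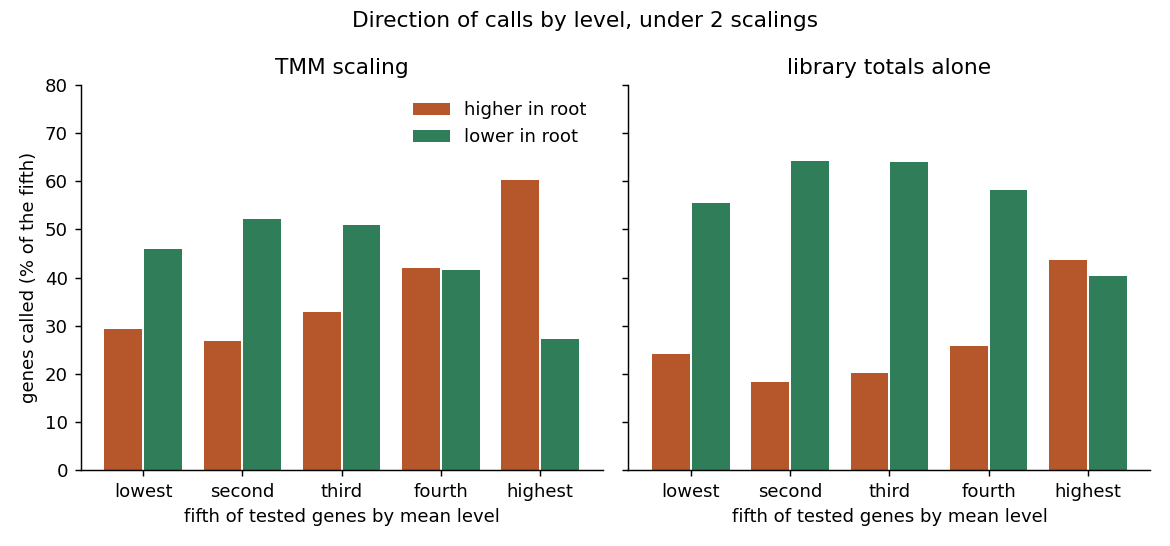
Bars give the percent of genes in each quintile of mean level that were called higher (brown) or lower (green) in root, with TMM scaling on the left and library totals alone on the right. The highest quintile is the only one with clearly more higher than lower calls under TMM (60.4% against 27.2%), and lower calls exceed higher ones in the lower 3 quintiles under both scalings.

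Gene structure went with the size of the difference more than with whether a gene was called. Genes with more than 1 listed transcript were called as often as all genes (6075 of 7439, or 81.7%, against 81.8%). At least 4-fold calls made up 24.2% of them (553 higher and 1249 lower in root), against 43.4% of the 12705 genes with 1 transcript (2234 higher and 3274 lower). The shortest quintile of genes by listed length had 48.5% at least 4-fold calls and the longest 25.7%, against 36.3% of all tested genes. These groups also differed in level: the median mean level was 5.14 log2 CPM for genes with more than 1 transcript and 3.44 for those with 1, and 2.49 and 5.18 for the shortest and longest quintile. The part of level in these shares was not tested.

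Calls were spread evenly over the IDs. IDs of the form CsNgN, where N stands for digits, fall into 9 numbered series from Cs1g to Cs9g, and the share called in each ran from 81.1% (Cs6g) to 83.9% (Cs9g). The remaining IDs, of the form orange1.1tN, were called for 2577 of 3212 genes (80.2%), with 1082 higher and 1495 lower in root. At least 4-fold lower calls made up 27.2% of the orange1.1tN genes against 21.5% of CsNgN genes and 22.5% of all tested. Their median level was also lower, at 3.56 against 4.29 log2 CPM. Cs7g IDs took 21.8% and 20.4% of root counts and 12.01% and 11.99% of stem counts, and without Cs7g25130 the root share was 12.6% in each library.

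Some genes with large differences in one direction were neighbours in ID number. Among the 16932 tested CsNgN genes, 2370 passed 4-fold toward root and 3648 toward stem. There were 94 runs of 3 or more consecutive tested IDs that were at least 4-fold higher, holding 348 genes, and 220 runs that were at least 4-fold lower, holding 779 genes. These numbers depended on scaling: with library totals alone there were 57 runs higher and 388 lower. The longest run higher in root had 13 Cs4g IDs. Its members had mean levels of 1.65 to 3182 CPM in root, 8 of them at 100 CPM or more, and at most 43.4 CPM in stem, and together they took 0.666% and 0.670% of root counts against 0.0101% and 0.00547% of stem counts. The longest run lower in root had 11 Cs9g IDs, all with a rounded count of 0 in both root libraries. Their mean levels were 1.39 to 8.24 CPM in stem. Against the root floor of 0.380 CPM the lowest had a bound under 4-fold, so this run's length rests in part on fitted folds. Estimated counts were not whole for all 13 genes of the first run and for 10 of the 11 in the second. Neighbouring IDs can be near-identical copies that share reads, so single values within runs are uncertain, and the number of runs was not tested. Both longest runs were picked with their values known.

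The listed length of a gene gave a second readout that the counts do not use. For all 17723 genes with 1 listed transcript the length was the same in every library, and for 7051 of the 7563 genes with more than 1 transcript it varied, as it does when a length is averaged over transcripts by their abundance. A change in listed length between organs would then mean a change in the mix of transcripts assigned to the gene. Genes with more than 1 transcript and at least 50 estimated counts in each library were tested on log2 length with limma. Of 5775 genes, 1107 passed at an adjusted p under 0.05 (19.2%), 280 longer in root (4.85%) and 827 shorter in root (14.3%). The number of calls fell to 238 without root replicate 1, 227 without root replicate 2 and 671 without stem replicate 2, and 767 were called without stem replicate 1, while shorter calls outnumbered longer ones in each of these fits. With the replicate number as a block 0 genes passed, and 1758 had an unadjusted p under 0.05 by limma, against 2191 without the block. The block leaves fewer residual degrees of freedom, so lost power and a lack of difference cannot be told apart there.

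Most length differences were small, and the larger ones also leaned to shorter genes in root. The median absolute difference between organ means was 26.0 bases, against a median of 7.84 bases between root replicates and 10.4 between stem replicates. Both root libraries were below both stem libraries for 2562 genes (44.4%) and above them for 1169 (20.2%). Of the 1107 called genes, 691 differed by less than 1.1-fold. At least 1.2-fold differences were called for 169 genes, 40 longer and 129 shorter in root, with a median of 482 bases. Genes with 5 or more transcripts had such a difference in 4.89% of cases, those with 3 to 4 in 3.47% and those with 2 in 1.87%.

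Genes with a length difference were called for counts about as often as the others. Of the 169 genes, 37 (21.9%) were not called for counts, against 1160 (20.1%) of all 5775 genes tested for length. Counts differed by less than 2-fold for 92 of them (54.4%), against 3262 (56.5%) of all. Counts were higher in root for 87 (51.5%) and lower for 45 (26.6%), against 2737 (47.4%) and 1878 (32.5%) of all.

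**Figure D5:**
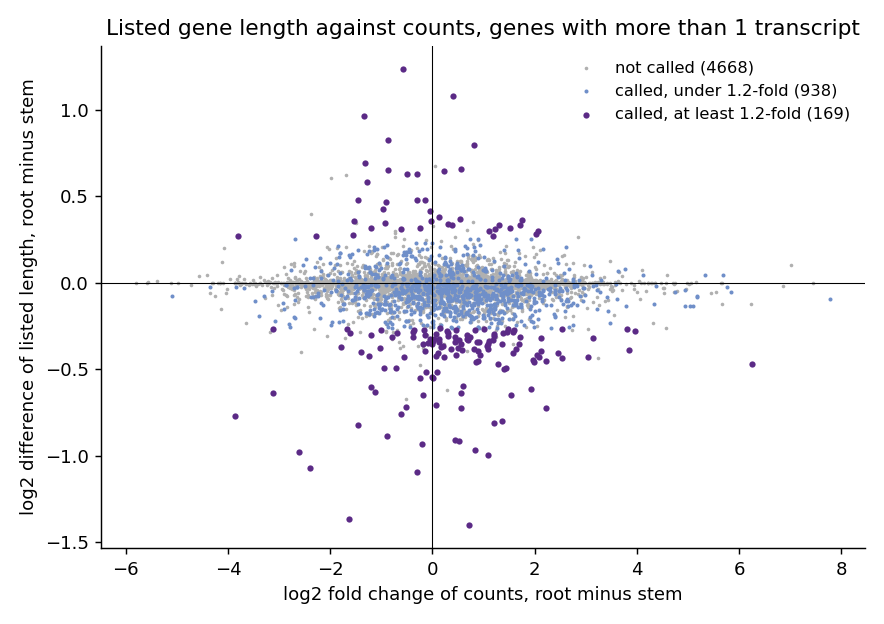
Each point is a gene with more than 1 listed transcript, with its log2 fold change of counts, root minus stem, on the x axis and its log2 difference of listed length, root minus stem, on the y axis. Of the 169 called genes with at least a 1.2-fold difference (dark points), 129 lie below 0, that is shorter in root, and they are spread over both sides of 0 in counts.

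The genes with the largest called length differences showed how far count and length can part. Cs5g27150, with 4 listed transcripts, had listed lengths of 1165 and 1152 bases in the root libraries and 3055 and 3073 bases in the stem libraries. The log2 difference was -1.40 ± 0.01 (SE, limma adjusted p = 0.00275; adjusted p = 0.0679 with the replicate block). Its counts were 175 and 183 CPM in root and 105 and 112 CPM in stem, a log2 difference of 0.72 ± 0.10 (SE, edgeR adjusted p = 3.4e-04). Per length, its deposited FPKM was 122 and 131 in root against 41.4 and 45.3 in stem, or 2.92 times as high on the means.

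Cs4g16820, with 2 listed transcripts, went the other way. Its listed length was 2601 and 2637 bases in root and 1101 and 1120 bases in stem, a log2 difference of 1.24 ± 0.01 (SE, limma adjusted p = 0.00417; adjusted p = 0.0679 with the replicate block). Its counts were 110 and 118 CPM in root and 183 and 157 CPM in stem, a log2 difference of -0.58 ± 0.12 (SE, edgeR adjusted p = 0.00239). Its deposited FPKM was 33.9 and 36.1 in root and 204 and 178 in stem, so that the mean in root was 0.183 times that in stem. FPKM is scaled to library totals and CPM here to TMM-adjusted sizes, so the folds on these scales differ by that scaling as well as by length.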

How the data were processed

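The authors deposited one table per library, with a gene ID, its transcripts, a length in bases, an expected (estimated) count and an FPKM, per the file headers. The expected counts were deposited without scaling to depth, and the authors scaled FPKM by length and library size. The tools, annotation, genome build and strandedness behind them are not given in the sources used. Values of overlapping genes and of near-identical copies are therefore uncertain. Poly(A) RNA was captured on oligo(dT) beads and copied from random primers, per the labels' protocols. Tables list only values above 0, and a missing gene counts as 0. Between 73.2% and 75.8% of listed counts were whole within 0.005. PCR copies were not marked, so precision from depth covers counting error only.

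Expected counts of the 4 libraries were rounded and entered edgeR's quasi-likelihood test (4.0.16, with limma 3.58.1, in R 4.3.3), using organ as the only term, which leaves 2 residual degrees of freedom. filterByExpr kept 20144 of 25286 genes. TMM factors were 0.805 and 0.813 in root and 1.22 and 1.26 in stem. The standard error of a log2 fold change was taken as its size over the root of F. Adjustment was by Benjamini-Hochberg across every gene tested. Log2 lengths were tested with limma (trend). A chi-square per degree of freedom of 2.86 in root and 11.8 in stem showed that replicates differed beyond sampling noise. Both tests were checked on simulated data with few changed genes, as many up as down, and the same spread in both organs. That check does not cover changes in most genes or an unequal spread between organs, as found here. Alternatives were DESeq2 (1.42.0), other scalings and filters, FPKM, leaving out each library, and the replicate number as a block.

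Libraries were assigned to organs by their labels, but the comparison and the lists were chosen with earlier results of these data known. Named genes were chosen per direction. They are the largest fitted fold among called genes at a mean log2 CPM of at least 3 whose libraries do not overlap, and the largest difference in mean CPM. For lengths, the largest called difference was taken. The gene lists and markers planned by description could not be applied without names. The other 8 libraries were not used.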

Additional observations from a re-analysis of the deposited data

How the results depend on the processing

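The 5 counts of called genes stayed within 1.5 times their value under DESeq2, other scalings, other filters, FPKM and leaving out each library, except that limma on log2(FPKM + 1) gave 1429 genes at least 4-fold higher in root. With a library left out the calls ran from 14752 to 17213. The 4 named genes kept direction and call in every setting that fitted them (Cs7g25130 is the gene left out in one), and 4315 higher and 6403 lower calls were made in all 15 settings. Membership was less steady than these totals for large differences toward root. Of the 2787 genes at least 4-fold higher, 1245 were so in all 15 settings, and of the 4523 at least 4-fold lower, 3054 were. The share of higher calls was 32.2% on log2(FPKM + 1) and 32.1% on log2(FPKM + 0.1). Same-numbered libraries did not deviate together (r = -0.02 across 13681 genes). This rests on a single pair of differences and cannot show whether same-numbered libraries shared a tree. With the replicate block 16284 genes were called, 16187 of them shared, and no length call remained (0 longer, 0 shorter).

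Where a value moved, the cause was not tested unless the setting itself shows it. Requiring 10 counts left 303 root-only and 668 stem-only genes. On FPKM the 10 most abundant genes took 8.43% in root and 7.17% in stem, and 1460 genes held 50% in stem. Without the most abundant gene 1065 genes held 50% in root and the 10 most abundant took 4.30%. At least 4-fold, 40.2% of orange1.1tN genes, 24.2% of genes with more than 1 transcript, 48.5% of the shortest quintile and 25.7% of the longest were called. Runs numbered 346 higher and 536 lower at 2-fold, and 57 and 388 with library totals alone. With a library left out, length calls ran from 227 to 767, longer ones from 33 to 307 and shorter ones from 194 to 460. At least 1.2-fold, a limit added after seeing the data, 169 were called (40 longer, 129 shorter). An organ left with 1 library is assumed to vary like the other.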
